A study of Homo sapiens with 4 samples.

Results

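The mitotic spindle and kinetochore genes are 48 human genes that are switched on together as a cell approaches division. They encode the kinetochore and centromere proteins, the spindle checkpoint, the mitotic kinases, the cyclins and their partners, the kinesin motors, the proteins of the spindle and midzone, the condensins and other chromosome proteins, and *FOXM1*, a transcription factor of this programme. The genes were chosen by name for these roles, with earlier results of these data known, and all 48 matched an identifier among the 63677 genes in the count files. Gene expression was measured by RNAseq in FLO-1, a cell line of human esophageal adenocarcinoma, and in FLO-1LM, a derivative of FLO-1 taken from a macroscopic liver metastasis after repeated passage through immunodeficient NSG mice. Both lines were grown untreated and taken at 80% confluency, 24 hr after fresh medium was given. Each line gave 2 libraries, FLO-1LM replicates 1 and 2 and FLO-1 parental replicates 1 and 2, and no treatment or engineered allele separated them. FLO-1LM is a single derivative, so values for it describe that line and not metastatic cells at large. Whether the replicates were grown as separate cultures is not given in the labels, so the p-values measure the spread between these libraries, which may be technical.

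At mitosis each pair of sister chromatids is gripped by spindle microtubules at its kinetochores, protein assemblies built on the centromere. The spindle checkpoint holds the anaphase-promoting complex in check until every kinetochore is attached, after which securin and the B-type cyclins are degraded and the chromatids part. Most of these genes are silent in G1 and peak in G2 and M under the MuvB complex with B-MYB and *FOXM1*, which reach their promoters through the cell cycle homology region (CHR), while the factor NF-Y binds nearby CCAAT boxes. In bulk RNA, their level therefore depends on how many cells are dividing. In these libraries a difference in the number of dividing cells and one in RNA per dividing cell cannot be told apart.

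The promoters carry these motifs. RefSeq (GRCh38.p14) gave a window from 250 bases before to 50 bases after the transcript start for 41 of the 48 genes, with the first listed start taken where a gene had several. A CHR was counted as TTTGAA or TTCGAA and an NF-Y box as CCAAT, on either strand, and neighbouring matches may share bases. A CHR match lay in 30 of the 41 windows (73.2%), against 16.6% of 27305 promoters of the same length. For the NF-Y box the share was also 73.2%, against 35.7%, and 23 windows (56.1%) held both kinds, against 6.58%. In 27 windows (65.9%) a CHR match began no more than 100 bases before the start or after it, against 7.43% of all promoters. A match is a description of the letters in the window and was not tested as a binding site. The 200 bases before the start are shown for *CENPE* and *HMMR*, the genes with the smallest p-values between the lines, for *CCNB1* and *CDK1*, the cyclin and kinase that drive mitotic entry, and for *CCNB2*, which was added after its matches had been seen because it holds the usual arrangement of spaced NF-Y boxes followed by a CHR. *CENPE* lies at chr4:103198344-103198543 on the minus strand, and on the plus strand lie *HMMR* at chr5:163460432-163460631, *CCNB1* at chr5:69166950-69167149, *CDK1* at chr10:60778131-60778330 and *CCNB2* at chr15:59104946-59105145, all in GRCh38.p14. Capitals mark the CHR and NF-Y box matches on either strand, 5′ to 3′.
CENPE: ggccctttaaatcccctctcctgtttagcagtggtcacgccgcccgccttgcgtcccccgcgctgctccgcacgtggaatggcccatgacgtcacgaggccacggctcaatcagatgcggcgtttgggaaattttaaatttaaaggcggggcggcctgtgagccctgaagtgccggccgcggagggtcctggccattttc
HMMR: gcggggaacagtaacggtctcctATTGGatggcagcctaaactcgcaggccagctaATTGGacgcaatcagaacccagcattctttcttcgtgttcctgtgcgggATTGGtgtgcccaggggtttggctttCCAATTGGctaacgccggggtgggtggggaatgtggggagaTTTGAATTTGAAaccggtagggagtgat
CCNB1: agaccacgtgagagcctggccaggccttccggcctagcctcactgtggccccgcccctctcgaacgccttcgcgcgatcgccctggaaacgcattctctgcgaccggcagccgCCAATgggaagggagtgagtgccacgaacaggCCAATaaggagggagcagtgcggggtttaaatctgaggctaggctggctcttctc
CDK1: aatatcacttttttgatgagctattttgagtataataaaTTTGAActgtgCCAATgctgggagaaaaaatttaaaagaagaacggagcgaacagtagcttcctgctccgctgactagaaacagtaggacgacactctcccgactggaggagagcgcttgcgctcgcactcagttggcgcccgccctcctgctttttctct
CCNB2: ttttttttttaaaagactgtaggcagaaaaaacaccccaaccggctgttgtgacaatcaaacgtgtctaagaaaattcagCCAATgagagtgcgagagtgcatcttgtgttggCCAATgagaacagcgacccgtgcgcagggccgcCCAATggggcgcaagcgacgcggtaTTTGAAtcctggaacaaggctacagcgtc
In the 200 bases shown, *HMMR* carried 2 adjoining CHR matches and 5 NF-Y boxes, of which one pair overlapped. *CCNB2* carried 3 boxes and 1 CHR, *CCNB1* 2 boxes, and *CDK1* 1 of each, whereas *CENPE* had no match in its window. The genes with the 2 largest fold changes between the lines, *CENPE* and *HMMR*, were thus the one without and the one with the most matches of the 5 shown. The 5 were picked, not drawn at random, and the windows of *CDC25B*, *CDC25C* and *KIF2C* also had no match. A relation of matches to fold change was not tested.

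The libraries held 19060310 to 25920336 counts, and 17143 genes passed the filter on low counts, among them all 48 mitotic genes with at least 587 counts in every library. *KRT8* and *KRT18*, keratins of simple epithelia, were abundant in all 4 libraries, whereas *EPCAM*, an epithelial surface marker, had 3 to 12 counts. The 7 epithelial markers summed to 495 and 510 CPM (counts scaled to library size) in FLO-1LM and 866 and 878 CPM in the parental line. The hepatocyte markers *ALB* and *TTR*, the leukocyte marker *PTPRC* and the fibroblast markers *COL3A1* and *DCN* were at 0 in all 4 libraries, and the summed markers of hepatocytes, hematopoietic, endothelial and fibroblast cells were at most 18.1 CPM. The fold changes below are on the log2 scale, FLO-1LM against parental, fitted with edgeR (quasi-likelihood, p-values adjusted by Benjamini-Hochberg over all genes tested), and a gene was called at an adjusted p below 0.05. Of the 17143 genes, 382 were called (2.23%), 69 of them higher (0.402%) and 313 lower (1.83%) in FLO-1LM.

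As a group, the mitotic genes stood at nearly the same level in both lines. Their summed level was 9093 and 8808 CPM in FLO-1LM and 8772 and 8458 CPM in the parental line. Both FLO-1LM sums lay above both parental sums, with a ratio of means of 1.04. The nearest sums of the lines, 8808 and 8772 CPM, were closer to each other than the replicates of either line were. *CENPE* was called higher, 1 of 48, and no member was called lower. At an unadjusted p below 0.05, 9 of the 48 were higher, against 5.28% of all genes tested, and 1 was lower, against 7.08%. Both FLO-1LM libraries lay above both parental libraries for 17 members, against 20.9% of all genes, and below them for 5, against 21.7%. The median fold change of the members was 0.040 on the log2 scale, or 2.81% more in FLO-1LM, and that of all tested genes 0.0016. Fold changes ran from −0.24 (*AURKA*) to 0.36 (*CENPE*), with 31 members (64.6%) above 0 and 17 below, against 50.4% of all genes above 0. The 6877 tested genes with a mean CPM within the members' range had a median of 0.011, with 53.6% above 0. Of these genes, 473 were higher and 416 lower at an unadjusted p below 0.05. Both FLO-1LM libraries lay above both parental libraries for 1664 of these genes and below them for 1368.

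The libraries measured these genes closely. The standard error of a member's fold change was 0.067 to 0.12. The 95% interval of each of the 48 lay within a 1.5-fold difference in either direction. So did the intervals of 6763 of the 6877 tested genes with a mean CPM within the members' range, so this was not particular to the members. With 2 libraries a line, the smallest two-sided p that an exact permutation test of 1 gene allows is 0.333, so the p-values rest on the spread that edgeR shares across genes.

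**Figure D1:**
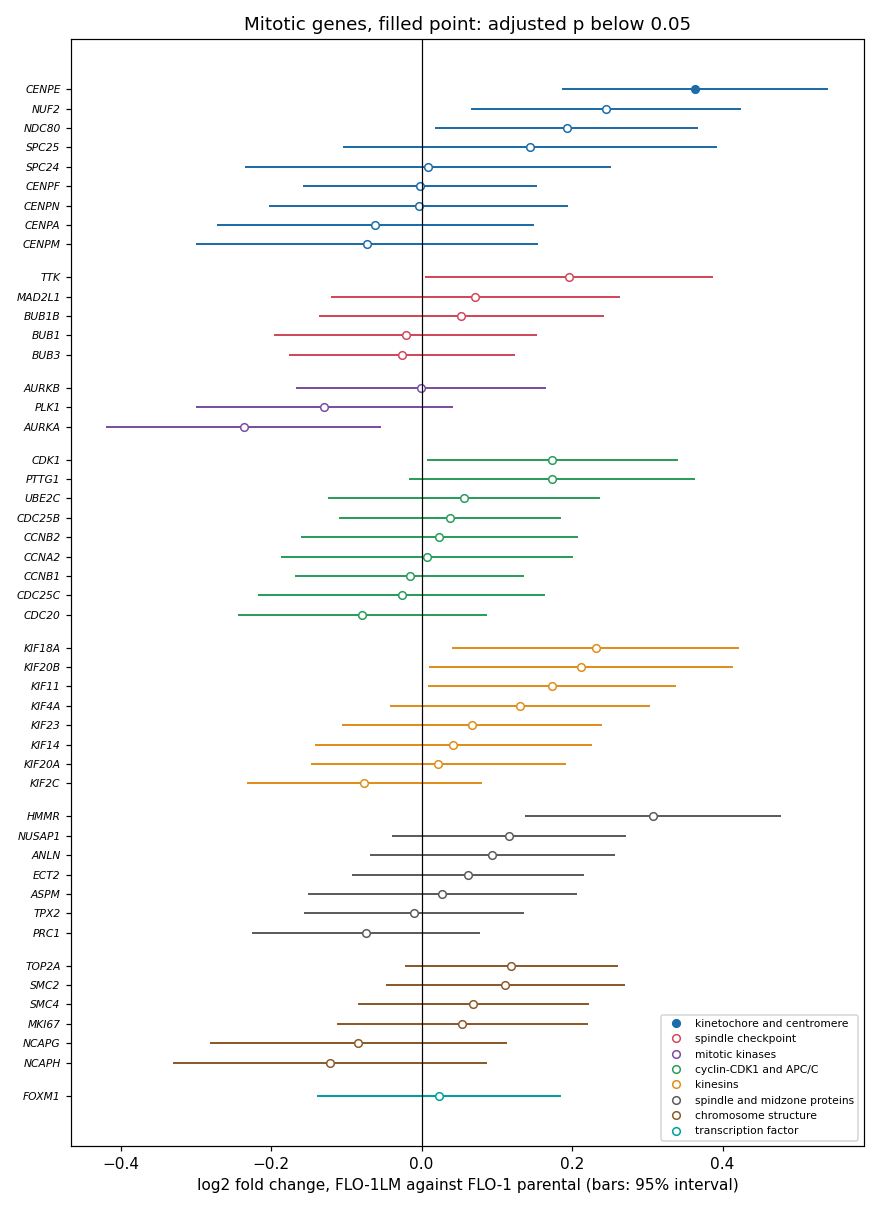
Log2 fold change of each of the 48 mitotic genes, FLO-1LM against FLO-1 parental, with its 95% interval as a bar, coloured and grouped by role. The only filled point, a gene past an adjusted p of 0.05, is *CENPE* at 0.36, and the others lie between −0.24 and 0.31.

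The kinetochore and centromere genes include the one call. *CENPE* (chromosome 4, 104026506 to 104119602, minus strand, GRCh37) encodes the kinesin that carries chromosomes to the spindle equator and links kinetochores to microtubules. It had 136 and 126 CPM in FLO-1LM and 107 and 96.4 CPM in the parental line. Both FLO-1LM libraries were above both parental libraries, a fold change of 0.36 (SE 0.084, 95% interval 0.19 to 0.54, adjusted p = 0.0249), or 28.7% more in FLO-1LM. The call was lost without parental replicate 1 (0.44, adjusted p = 0.0916) and without parental replicate 2 (0.29, adjusted p = 0.544), and over all 12 alternative settings the adjusted p ran from 0.000315 to 0.544.

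*NUF2* and *NDC80* encode the paired long arms of the *NDC80* complex, the main microtubule clamp of the kinetochore. *NUF2* had 89.4 and 84.8 CPM in FLO-1LM against 75.3 and 71.6 CPM in the parental line. Neither parental library reached the FLO-1LM range, and the fold change was 0.25 (SE 0.085, adjusted p = 0.189). *NDC80* had 105 and 101 CPM against 93.8 and 86.3 CPM, again without overlap, with a fold change of 0.19 (SE 0.083, adjusted p = 0.337). *SPC25* and *SPC24* form the inner end of that complex: *SPC25* had 31.3 and 32.4 CPM in FLO-1LM against 26.6 and 31.2 CPM, a fold change of 0.14 (SE 0.12), and *SPC24* had a fold change of 0.0083 (SE 0.11), with overlapping libraries. The 4 subunits thus ranged from 0.0083 to 0.25, and none passed the adjusted threshold.

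*CENPF*, a large protein of the outer kinetochore, had the highest level per length of the group, 43.9 RPKM (counts scaled to exon length and library size) as the mean of both lines. Its libraries read 550 and 544 CPM in FLO-1LM and 581 and 515 CPM in the parental line, so the parental pair enclosed the FLO-1LM pair, with a fold change of −0.0022 (SE 0.073). *CENPA*, the histone H3 variant that marks the centromere, gave −0.062 (SE 0.10), and *CENPN*, which reads the *CENPA* nucleosome, −0.0037 (SE 0.094). *CENPM*, another inner kinetochore protein, had the lowest fold change of the group, with 33.3 and 35.5 CPM in FLO-1LM and 34.9 and 37.5 CPM in the parental line (−0.073, SE 0.11). Those 4 genes had overlapping libraries.

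Among the spindle checkpoint genes, 3 of 5 had fold changes above 0, against 50.4% of all genes tested, and none was called. *TTK*, the kinase MPS1 that starts checkpoint signalling at unattached kinetochores, had 107 and 91.2 CPM in FLO-1LM and 89.4 and 83.3 CPM in the parental line. The FLO-1LM libraries differed from each other by more than the lower of them differed from the parental pair, and the fold change was 0.20 (SE 0.090, adjusted p = 0.385). It was 0.31 (adjusted p = 0.0259) without FLO-1LM replicate 2 and 0.079 (adjusted p = 0.712) without FLO-1LM replicate 1, and over the 12 alternatives the adjusted p ran from 0.0259 to 0.981. *BUB3*, a scaffold of the checkpoint, had the highest level per length (33.0 RPKM) and the lowest fold change (−0.027, SE 0.071), at 270 and 265 CPM in FLO-1LM and 273 and 272 CPM in the parental line. *MAD2L1*, the checkpoint protein that binds *CDC20*, gave 0.071 (SE 0.091), *BUB1B*, its partner BUBR1 in the inhibitory complex, 0.053 (SE 0.089), and the kinase *BUB1* −0.021 (SE 0.082).

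In the role of mitotic kinases, which held only *AURKA*, *PLK1* and *AURKB*, 3 of 3 fold changes were below 0, and none was called. Kinases placed in other roles did not share that sign: *TTK* gave 0.20, *CDK1* 0.17 and *BUB1* −0.021. *AURKA* (chromosome 20, 54944445 to 54967393, minus strand, GRCh37), the kinase of centrosomes and spindle poles, had 98.2 and 86.6 CPM in FLO-1LM and 112 and 105 CPM in the parental line. Both FLO-1LM libraries were below both parental libraries, with a fold change of −0.24 (SE 0.086, 95% interval −0.42 to −0.055, adjusted p = 0.224). It was the only one of the 48 lower at an unadjusted p below 0.05 by edgeR, and without FLO-1LM replicate 1 it passed the adjusted threshold (−0.33, adjusted p = 0.0125). It was −0.15 (adjusted p = 0.399) without FLO-1LM replicate 2 and −0.19 (adjusted p = 0.999) without parental replicate 1, which gave the highest adjusted p of the 12 alternatives. *PLK1*, the Polo-like kinase of mitotic entry, spindle poles and kinetochores, had 89.3 and 90.5 CPM against 96.4 and 100.3 CPM, a fold change of −0.13 (SE 0.081, adjusted p = 0.575), also without overlap. *AURKB*, the kinase of the chromosomal passenger complex that corrects faulty attachments, had the highest level per length (46.9 RPKM) and was level in the lines, at 105 and 105 CPM in FLO-1LM and 105 and 105 CPM in the parental line (−0.00090, SE 0.079). *TPX2*, which recruits and activates *AURKA* on spindle microtubules, did not share the value of its partner: its fold change was −0.0099 (SE 0.069), at 479 and 496 CPM in FLO-1LM and 501 and 481 CPM in the parental line.

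The cyclins, *CDK1* and the regulators of the anaphase-promoting complex had fold changes between −0.079 and 0.17, none called. *CDK1*, the kinase that drives mitosis, had 143 and 132 CPM in FLO-1LM and 123 and 120 CPM in the parental line. The pairs did not overlap, and the fold change was 0.17 (SE 0.079, 95% interval 0.0086 to 0.34, adjusted p = 0.371). Its cyclins did not share that value, since *CCNB1*, with the highest level per length of the group (114 RPKM), had 284 and 269 CPM in FLO-1LM and 280 and 279 CPM in the parental line (−0.016, SE 0.072). *CCNB2* gave 0.024 (SE 0.087) and *CCNA2* 0.0073 (SE 0.092), both with overlapping libraries.

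The CDC25 phosphatases, which remove the inhibitory phosphates of *CDK1*, gave 0.038 (SE 0.070, *CDC25B*) and −0.026 (SE 0.090, *CDC25C*). *PTTG1*, securin, which restrains the protease that cuts cohesin, had 78.7 and 82.2 CPM in FLO-1LM against 66.9 and 75.9 CPM. The FLO-1LM pair was higher without overlap, with a fold change of 0.17 (SE 0.090, adjusted p = 0.459). *CDC20*, the activator of the anaphase-promoting complex, had the lowest fold change of the group, with 132 and 142 CPM against 141 and 148 CPM (−0.079, SE 0.078), and *UBE2C*, the ubiquitin-conjugating enzyme of that complex, gave 0.056 (SE 0.085).

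The kinesins had 7 of 8 fold changes above 0, against 50.4% of all genes tested, and a median of 0.099, none called. *KIF18A*, which damps chromosome oscillation at the plus ends of kinetochore microtubules, had 61.8 and 62.3 CPM in FLO-1LM and 53.0 and 52.7 CPM in the parental line. The libraries of each line were close together and the pairs did not overlap, with a fold change of 0.23 (SE 0.090, adjusted p = 0.272). *KIF20B*, a motor of cytokinesis, had 235 and 183 CPM in FLO-1LM and 184 and 176 CPM in the parental line. Here only FLO-1LM replicate 1 stood apart. The fold change was 0.21 (SE 0.095, adjusted p = 0.368), and it was 0.38 (adjusted p = 0.000464) without FLO-1LM replicate 2 and 0.018 (adjusted p = 0.941) without FLO-1LM replicate 1, so that 1 library decided the value.

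*KIF11*, the bipolar motor that pushes the spindle poles apart, had 256 and 233 CPM in FLO-1LM against 226 and 207 CPM, without overlap, and a fold change of 0.17 (SE 0.078, adjusted p = 0.369). *KIF2C*, the microtubule depolymerase MCAK, had both the highest level per length of the kinesins (50.6 RPKM) and the lowest fold change, with 183 and 176 CPM in FLO-1LM and 187 and 191 CPM in the parental line (−0.076, SE 0.074). That pair was lower without overlap, although the difference was about 1 standard error. The chromokinesin *KIF4A* gave 0.13 (SE 0.081), and the midzone motors *KIF23*, *KIF14* and *KIF20A* gave 0.067 (SE 0.082), 0.042 (SE 0.087) and 0.022 (SE 0.080).

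Of the spindle and midzone proteins, *HMMR* had the largest fold change and fell just outside the threshold. *HMMR* (chromosome 5, 162887209 to 162918947, plus strand, GRCh37) is a hyaluronan receptor that inside the cell binds microtubules at spindle poles. It had 143 and 144 CPM in FLO-1LM and 122 and 110 CPM in the parental line. The FLO-1LM libraries agreed closely and lay above both parental libraries, with a fold change of 0.31 (SE 0.080, 95% interval 0.14 to 0.48, adjusted p = 0.0527). It passed with DESeq2 (adjusted p = 0.0449), limma voom (0.0465) and no filter on low counts (0.0153), and also without either FLO-1LM replicate (0.0124 without replicate 1 and 0.0205 without replicate 2), whereas it was 0.190 without parental replicate 1 and 0.765 without parental replicate 2, the highest of the 12 alternatives.

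*TPX2* had the highest level per length of that group, 136 RPKM. *PRC1*, the bundler of midzone microtubules, had the lowest fold change, with 345 and 338 CPM in FLO-1LM and 347 and 372 CPM in the parental line (−0.074, SE 0.072). Its pairs were separated by less than 2 CPM at their nearest libraries. *NUSAP1*, a spindle bundling protein, had 185 and 190 CPM against 173 and 173 CPM (0.12, SE 0.073, adjusted p = 0.586). The cytokinesis proteins *ANLN* and *ECT2* gave 0.094 (SE 0.077) and 0.062 (SE 0.073), and *ASPM*, which focuses the spindle poles, 0.027 (SE 0.084).

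Among the chromosome proteins, *TOP2A*, the topoisomerase that untangles sister DNA, was the member with the highest level per length of the 48, at 174 RPKM. It had 1185 and 1128 CPM in FLO-1LM and 1096 and 1034 CPM in the parental line. The pairs did not overlap, but the fold change was 0.12 (SE 0.067, adjusted p = 0.511), the highest of this group. The 4 condensin genes did not share a sign: the shared ATPase subunits *SMC2* and *SMC4* gave 0.11 (SE 0.075) and 0.069 (SE 0.072), and the condensin I subunits *NCAPG* and *NCAPH* gave −0.084 (SE 0.093) and −0.12 (SE 0.099), with 60.2 and 69.0 CPM in FLO-1LM and 75.4 and 65.2 CPM in the parental line for *NCAPH*. *MKI67*, the chromosome surface protein known as the proliferation marker Ki-67, had 317 and 323 CPM in FLO-1LM and 332 and 285 CPM in the parental line. The FLO-1LM pair lay between the parental libraries, with a fold change of 0.054 (SE 0.079, 95% interval −0.11 to 0.22). *FOXM1* itself had 129 and 127 CPM in FLO-1LM and 126 and 125 CPM in the parental line, a fold change of 0.023 (SE 0.077, 95% interval −0.14 to 0.18).

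**Figure D2:**
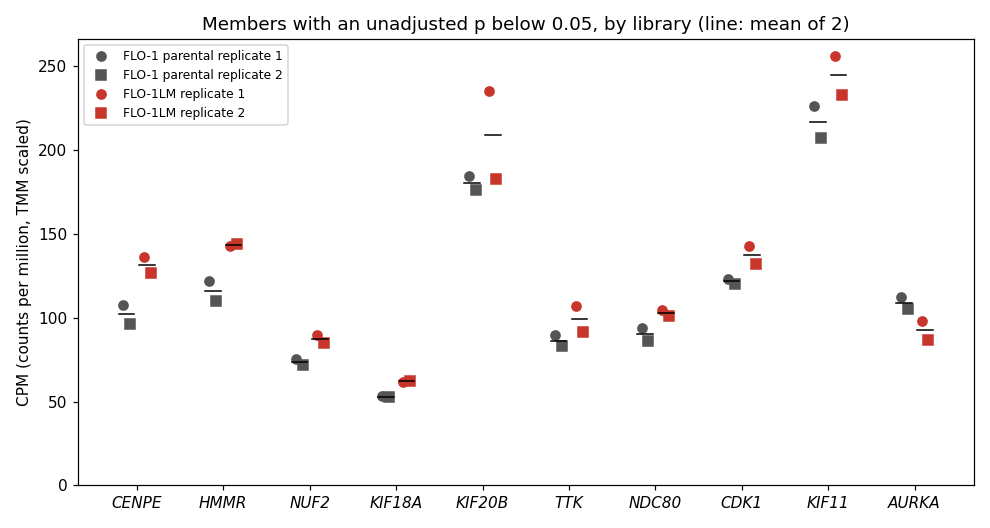
Level in each library, in CPM after TMM scaling on an axis from 0, of the 10 mitotic genes with an unadjusted p below 0.05 between the lines; grey marks are parental and red marks FLO-1LM libraries, and a line marks the mean of 2. The FLO-1LM libraries lie above both parental libraries for *CENPE*, *HMMR*, *NUF2*, *KIF18A*, *TTK*, *NDC80*, *CDK1* and *KIF11*, overlap them for *KIF20B*, and lie below them for *AURKA*.

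The members higher in FLO-1LM at an unadjusted p below 0.05 shared a property that the choice of genes did not use, the base composition of their transcripts. GC content was taken from the longest transcript of each gene after the fold changes had been seen, and ran from 34.3% (*KIF20B*) to 61.4% (*CENPM*) with a median of 42.2%. All 9 members that were higher at an unadjusted p below 0.05 lay below that median, at 40.8% or less. Other members with fold changes above 0 lay above it, among them *PTTG1* (0.17, 49.3% GC), *KIF4A* (0.13, 46.2%) and *NUSAP1* (0.12, 48.3%). Across the 48 genes, fold change and GC content had a Pearson r of −0.55 and a Spearman rho of −0.58, against −0.066 and −0.095 over 16706 tested genes with a transcript. These are correlations across genes measured in the same 4 libraries, and genes are not independent replicates.

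The 24 members below the median GC had a median fold change of 0.10, with 19 above 0, and the 24 above it 0.0037, with 12 above 0. In other protein-coding genes of the same range of levels, the median was 0.036 for 1939 genes below that GC content, with 62.1% above 0. For 4605 genes above that GC content, it was −0.0012, with 49.7% above 0. By library, the members of low GC had a median deviation from the mean of the 4 libraries of 0.096 and 0.024 in FLO-1LM replicates 1 and 2 and of −0.031 and −0.097 in parental replicates 1 and 2. Thus FLO-1LM replicate 1 and parental replicate 2 stood farthest apart, and the comparison genes of low GC had the same order for those 2 libraries, at 0.040 and −0.042. In FLO-1LM replicate 2 and parental replicate 1, the comparison genes stood at −0.0033 and 0.0087. For them the lines therefore overlapped, unlike for the members of low GC. Offsets that depend on GC content were an alternative chosen after the data were seen. With them, *CENPE* was called again (0.32, adjusted p = 0.0248), *HMMR* had an adjusted p of 0.0773, and 5 members were higher and 1 lower at an unadjusted p below 0.05. Of the 5 higher, 4 lay below the median GC (*CENPE*, *HMMR*, *NUF2* and *KIF18A*) and 1 above it, *PTTG1* at 49.3%. *KIF20B*, *CDK1*, *NDC80*, *KIF11* and *TTK* were no longer below that unadjusted p. The part of base composition in the fold changes was not tested beyond these values.

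**Figure D3:**
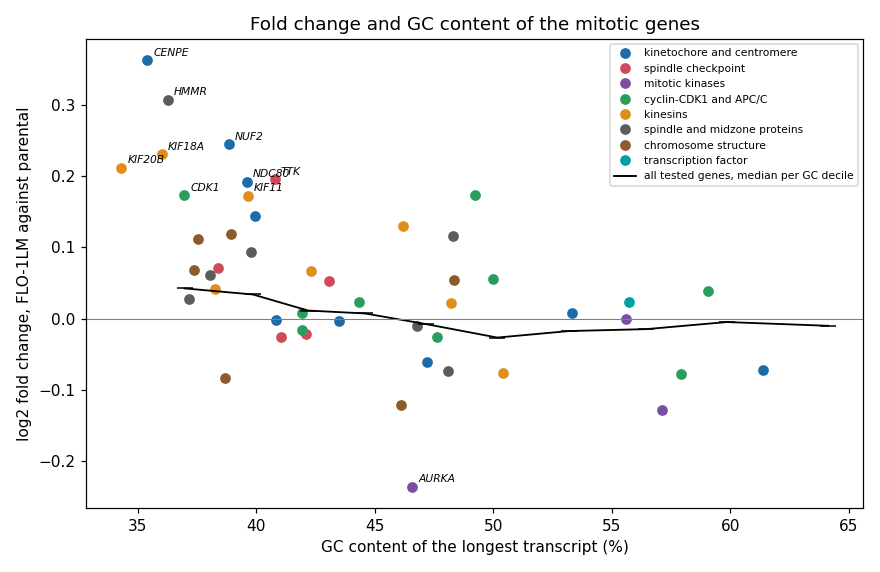
Log2 fold change, FLO-1LM against parental, of the 48 mitotic genes (points, coloured by role) against the GC content in percent of the longest transcript, with the median of all tested genes in each GC decile as a black line. The named points have an unadjusted p below 0.05; the 9 higher ones lie at or below 40.8% GC, and *AURKA* lies at 46.6%.

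A wider list of 83 other mitotic genes, of the same kinds of role, was read from the same fit. It had 1 gene called higher and none lower, 9 higher and none lower at an unadjusted p below 0.05, and a median fold change of 0.027. The call was *CDKN3*, a phosphatase that acts on *CDK1* and *CDK2*, with 56.0 and 62.1 CPM in FLO-1LM and 37.4 and 34.0 CPM in the parental line. Its libraries were far apart between the lines, with a fold change of 0.73 (SE 0.10, 95% interval 0.51 to 0.94, adjusted p = 0.000341), and it was called under all 12 alternatives. Of the others at an unadjusted p below 0.05, the highest was *NSL1*, a subunit of the *MIS12* complex (0.30, SE 0.13, adjusted p = 0.321), and the lowest were *KNL1*, the kinetochore scaffold of the checkpoint (0.20, SE 0.082, adjusted p = 0.319), and *ESPL1*, separase (0.19, SE 0.080, adjusted p = 0.334). In its 28 kinetochore genes, 17 fold changes (60.7%) were above 0, against 50.4% of all genes tested, with a median of 0.050. The 5 genes of MuvB and B-MYB had a median of −0.0077, and *MYBL2*, which encodes B-MYB, gave 0.093 (SE 0.077).

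S phase genes served as a second reference for dividing cells. Of 39, 38 were tested, none was called, and the median fold change was 0.035. Of the 38, 26 (68.4%) were above 0, against 50.4% of all genes tested. At an unadjusted p below 0.05 there was 1 gene, *CDC6*, which loads the replicative helicase, with 62.8 and 69.4 CPM in FLO-1LM and 55.3 and 57.0 CPM in the parental line (0.24, SE 0.092, adjusted p = 0.271). The summed level of the S phase list was 1.02 times as high in FLO-1LM, that of the other mitotic genes also 1.02 times, and that of the 48 mitotic genes 1.04 times. A CHR match lay in 55.9% of 68 windows of other mitotic genes and in 8.82% of 34 windows of S phase genes.

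**Figure D4:**
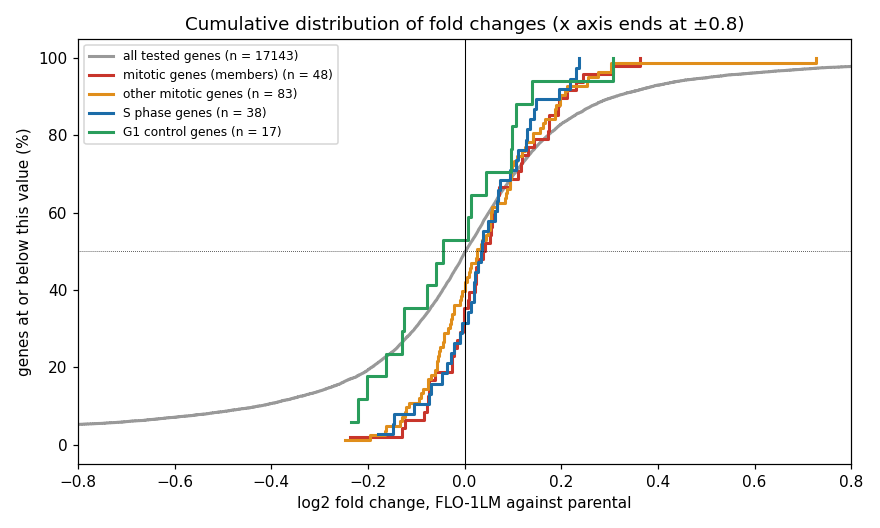
Cumulative distribution of log2 fold changes, FLO-1LM against parental, for the 48 mitotic genes, 83 other mitotic, 38 S phase and 17 G1 control genes, and all 17143 genes tested; the y axis is the percent of genes at or below the value on the x axis. The mitotic and S phase curves cross 50% at 0.027 to 0.040, and all but 1 of their genes, *CDKN3*, lie within the range from −0.25 to 0.36.

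Some of the counts could be shared with near-identical copies or with genes on the other strand, since the handling of such reads is not given in the sources used here. The pseudogene *CDC20P1* took 24.1% of the counts of *CDC20* and its copy, the retrogene *KIF4B* 18.2% of those of *KIF4A* and its copy, the copies of *PTTG1* 17.1% and the copy of *MAD2L1* 13.9%, and in the other members with a named copy the share was at most 3.09%. With the copies added, the log2 ratio of the lines was −0.049 for *CDC20*, 0.14 for *KIF4A*, 0.18 for *PTTG1* and 0.031 for *MAD2L1*, each of the same sign as for the gene alone. On the opposite strand, 7 noncoding genes that overlap members held 0.640 and 0.462 counts per 100 counts of those members in FLO-1LM and 0.904 and 0.868 in the parental line. *HMMR-AS1* was among them, with 1 and 5 counts in FLO-1LM and 25 and 5 in the parental line, beside at least 2107 counts of *HMMR* in every library.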

How the data were processed

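Total RNA of 4 libraries, 2 of FLO-1LM and 2 of FLO-1 parental cells, was made into directional libraries and sequenced on an Illumina NextSeq instrument. According to the submitters' notes, bcl2fastq 2.17 and Trimmomatic 0.30 were used, and reads were mapped to GRCh37. The deposited files hold raw counts per Ensembl gene. The program that counted them, whether it used strand, and how it handled multiply mapped reads are not given in the sources used here.

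Counts were analysed in R 4.3.3. Genes were kept with filterByExpr of edgeR 4.0.16 (default minimum count 10 in 2 libraries, minimum total 15), TMM factors were applied, and the lines were compared with glmQLFit and glmQLFTest without covariates, followed by Benjamini-Hochberg adjustment over 17143 genes. The standard error was derived from the log2 fold change and the F statistic, and intervals are 95%. CPM are after TMM scaling, and RPKM use the union of exons in a GENCODE annotation lifted to GRCh37. Total counts were 19060310 to 25920336, and the files gave no sequencing date or batch. Replicates differed by more than sampling noise, so none was counted as a duplicate. The chi-square per degree of freedom over genes was 9.66 in FLO-1LM and 4.59 in the parental line. Over the mitotic genes alone, it was 14.6 between the FLO-1LM libraries and 9.13 between the parental libraries. Between the lines it was 9.76 for FLO-1LM replicate 2 against parental replicate 1, and 15.0 to 28.8 for the other pairs. On these genes FLO-1LM replicate 2 was thus nearer to parental replicate 1 than to FLO-1LM replicate 1.

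The members and lists were chosen with earlier results of these data known. Values per library are given for members with an unadjusted p below 0.05 and, in each role, for the members with the highest level per length and the highest and lowest fold change. From the other lists, genes past an adjusted p of 0.05 are named, with the highest and lowest at an unadjusted p below 0.05. *MYBL2* and a few further values per library were added after the values were seen. Markers of other cell types are given as sums. *UHRF1* of the S phase list and the marker *PECAM1* were not analysed here, and *CCND2* of the G1 control list was below the filter. Alternatives were DESeq2 1.42.0, limma voom (limma 3.58.1), other scalings and filters, mitochondrial genes left out, each library left out and, added after seeing the data, GC-dependent offsets. The scripts were tested on simulated data.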

Additional observations from a re-analysis of the deposited data

How the results depend on the processing

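No paired analysis was possible because the labels give no replicate numbers that tie libraries of the lines to each other. The number of members called was 2 with DESeq2, limma voom and no filter on low counts, and 0 to 4 when 1 library was left out: 0 without either parental replicate, 3 without FLO-1LM replicate 1 and 4 without FLO-1LM replicate 2. Among all genes it was 577 without the filter, where more genes were tested, and 116 to 1052 with 1 library left out (116 and 139 without parental replicates 1 and 2, 1052 and 967 without FLO-1LM replicates 1 and 2). Among the other mitotic genes it was 2 without the filter and 1 to 3 with 1 library left out, and among S phase genes 0 to 2. The median fold change of the members was 0.0093 with library totals only, where the median of all genes was −0.029, 0.026 with GC-dependent offsets, and 0.020 to 0.057 with 1 library left out. The cause of these differences was not tested. Genes tested were 17978 and 17909 without FLO-1LM replicates 1 and 2, and 17808 and 17934 without parental replicates 1 and 2. All 48 members were tested each time. Without either FLO-1LM replicate, calls rose among all genes as well as among the members. Without either parental replicate, they fell in both, so the changes in member calls were not particular to the members. *CENPE* and *CDKN3* kept their direction under all 12 alternatives, as did the other 9 members with an unadjusted p below 0.05.

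The sign turned under at least 1 alternative in 18 members, each with a fold change of at most 0.084 in size. With library totals only, the values were −0.0039 for *ASPM*, −0.023 for *CCNA2*, −0.0067 for *CCNB2*, −0.0077 for *FOXM1*, −0.0088 for *KIF20A* and −0.022 for *SPC24*. With GC-dependent offsets they were −0.018 for *ASPM*, 0.012 for *AURKB* and −0.014 for *CCNA2*. With 1 library left out, the ranges were −0.058 to 0.11 for *ASPM*, −0.0072 to 0.0055 for *AURKB*, −0.14 to 0.090 for *BUB1*, −0.039 to 0.14 for *BUB1B*, −0.053 to 0.070 for *CCNA2*, −0.056 to 0.024 for *CCNB1*, −0.053 to 0.095 for *CCNB2*, −0.17 to 0.041 for *CENPA*, −0.086 to 0.088 for *CENPF*, −0.066 to 0.058 for *CENPN*, −0.049 to 0.14 for *KIF14*, −0.058 to 0.099 for *KIF20A*, −0.050 to 0.17 for *MKI67*, −0.21 to 0.035 for *NCAPG*, −0.094 to 0.10 for *SPC24*, −0.039 to 0.020 for *TPX2* and −0.053 to 0.16 for *UBE2C*.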

Other observations

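The G1 control genes, which include the G1 cyclins, their kinases, the inhibitors and the pocket proteins, act before the stage that the mitotic genes mark. Of 18, 17 were tested and none was called by edgeR, with a median fold change of −0.046 on the log2 scale and 9 of 17 below 0. At an unadjusted p below 0.05, 1 was higher, against 5.28% of all genes tested, and 2 were lower, against 7.08%. *CDKN2B*, the inhibitor p15 of *CDK4* and *CDK6*, had 32.0 and 39.7 CPM in FLO-1LM and 26.9 and 31.2 CPM in the parental line (0.31, SE 0.13, adjusted p = 0.306). *CDKN2C*, the related inhibitor p18, had 77.0 and 77.4 CPM against 90.1 and 87.5 CPM (−0.20, SE 0.083, adjusted p = 0.302). *CDKN1A*, the p53 target p21, had 55.8 and 46.5 CPM against 58.9 and 60.3 CPM (−0.22, SE 0.10, adjusted p = 0.376). The libraries of the lines did not overlap for these 3 genes, which were picked by that p. Of the 17 tested, both FLO-1LM libraries lay above both parental libraries for 2, against 20.9% of all genes. They lay below them for 5, against 21.7%. The directions of the 3 inhibitors differed.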
